A study of Homo sapiens with 8 samples.

Results

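The HOX cluster genes are the 39 protein-coding genes of the HOXA, HOXB, HOXC and HOXD clusters, taken from the GENCODE annotation by symbol (HOX followed by A, B, C or D and a number). They were followed in 6 lists of H3K27ac ChIP-seq peaks, and every peak between the outermost HOX genes of a cluster and up to 100 kb beyond them was included. This gave 54 to 83 peaks per library out of 86163 to 111697 in the whole list, and 83 merged intervals out of 143733. HCECs (HCEC-1CT) are human colonic epithelial cells that were immortalized in culture, and the libraries came from 3 independent populations of WT cells and 3 of CREBBP-KO cells, all growing at subconfluent density. CREBBP encodes an acetyltransferase that, together with its paralogue EP300, deposits H3K27ac at enhancers and promoters, and it was disrupted by transfected guide RNAs in cells with a doxycycline-inducible Cas9. The methods call the knockout cells of the ChIP experiment monoclonal and elsewhere describe pools of several clones beside matched parental subclones, so genotype and clonal origin cannot be told apart.

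HOX genes encode homeodomain transcription factors that give cells their position along the body axis, and their order on the chromosome follows the order of the body regions in which they act. Genes that hold the same place in different clusters form a paralogue group, numbered from 1 at the anterior end to 13 at the posterior end. Clusters are kept silent by Polycomb proteins, which methylate H3K27, and acetylation of the same residue marks the part of a cluster that is open. Adult cells, including cells of the intestine, keep a pattern of HOX activity that reflects where in the embryo they arose. H3K27ac is not a measure of transcripts, and no statement on RNA levels is made here.

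Peak height is given as the fold over local background that the authors deposited for each peak, and as the percentile of that fold within the library's own list, where 100 is the highest peak. Because each library is a bulk population, more acetylated cells and more acetylation per cell cannot be told apart. The lists of CREBBP-KO libraries were longer (99008 to 111697 peaks) than those of WT libraries (86163 to 93567 peaks), without overlap, whereas the part of the genome under peaks was 5.06% ± 0.194 (SD, n = 3) in WT and 5.29% ± 0.315 in CREBBP-KO. The depth of each library is unknown, as the lists hold no read counts. The promoter of CREBBP carried a peak in all 6 libraries, with percentiles of 96.5, 98.6 and 94.8 in WT and 98.8, 98.8 and 99.3 in CREBBP-KO, which does not check the knockout because the mark is not a measure of the protein. Of the markers of an epithelial cell, EPCAM and KRT8 had a promoter peak in all 6 libraries and KRT18 in 5, while CDH1 and KRT19 had none. Of the colonic markers, CDX1, CDX2, HNF4A and VIL1 had none, and LGALS4 had a promoter peak in the 3 WT libraries alone. All 5 mesenchymal markers (VIM, ZEB1, TWIST1, COL1A1 and COL1A2) had a promoter peak in every library, and their folds summed to between 88.1 and 95.1 in WT libraries and between 119.9 and 142 in CREBBP-KO libraries. Epithelial promoter folds summed to between 9.92 and 12.5 (WT) and between 10.3 and 12.8 (CREBBP-KO). KRT8 and KRT18 had the same folds in WT (4.56, 4.97 and 3.6) but not in CREBBP-KO, and both entered the sums. EPCAM peaks were low, at percentiles of 0.175, 7.27 and 8.36 in WT and 46.1, 35.6 and 19.7 in CREBBP-KO. Endothelial folds summed to 0 in WT and to between 2.8 and 3.6 in CREBBP-KO (PECAM1, with CDH5 and KDR at 0), and haematopoietic folds to 0 throughout (PTPRC, CD3E and SPI1).

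The first question was which clusters carried H3K27ac. HOXA and HOXB were broadly acetylated in both genotypes, HOXD was acetylated around HOXD8 and HOXD3, and HOXC carried little in WT cells and about 3.5 times as much in CREBBP-KO cells. In WT, 58.9% ± 0.813 (SD, n = 3) of the HOXA cluster from its first to its last gene lay under peaks, against 28.7% ± 0.892 of HOXB, 11.7% ± 0.451 of HOXD and 4.60% ± 0.760 of HOXC. The last value is close to the share of the whole genome given above. In CREBBP-KO the shares were 60.0% ± 0.736, 31.7% ± 0.230, 13.7% ± 0.476 and 15.9% ± 1.53.

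With 100 kb either side, peaks covered 70.6, 73.5 and 69.5 kb of HOXA (chr7:26992993-27300091 in hg38) in the WT libraries and 74.9, 75.7 and 75.3 kb in the CREBBP-KO libraries. For HOXB (chr17:48428526-48828750) the covered lengths were 72.7, 72.8 and 69.3 kb in WT and 78.7, 79.3 and 81.5 kb in CREBBP-KO. For HOXD (chr2:175992721-176290907) they were 23.4, 22.8 and 21.1 kb in WT and 27.3 kb in each CREBBP-KO library. For each of these 3 clusters all CREBBP-KO libraries lay above all WT libraries, by ratios of 1.06, 1.11 and 1.22. HOXC (chr12:53838831-54156030) stood apart, with 6.1, 6.33 and 5.39 kb in WT and 21.9, 19.6 and 20.9 kb in CREBBP-KO, a ratio of 3.50.

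The plot of the clusters by library shows the same order for the number of peaks. HOXC held 6, 6 and 5 peaks in WT and 22, 15 and 18 in CREBBP-KO, and its highest fold was 12.4, 11.5 and 12.1 in WT and 23, 22.2 and 22.8 in CREBBP-KO. HOXD held 14, 16 and 12 peaks in WT and 19, 17 and 17 in CREBBP-KO, also without overlap. The groups overlapped for the number of peaks in HOXA (17, 19 and 17 against 19, 20 and 18) and in HOXB (19, 19 and 20 against 23, 19 and 19). By two-sided exact permutation tests, every difference without overlap had p = 0.1, which is the smallest value that 3 libraries against 3 can give, so none could pass 0.05.

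**Figure D1:**
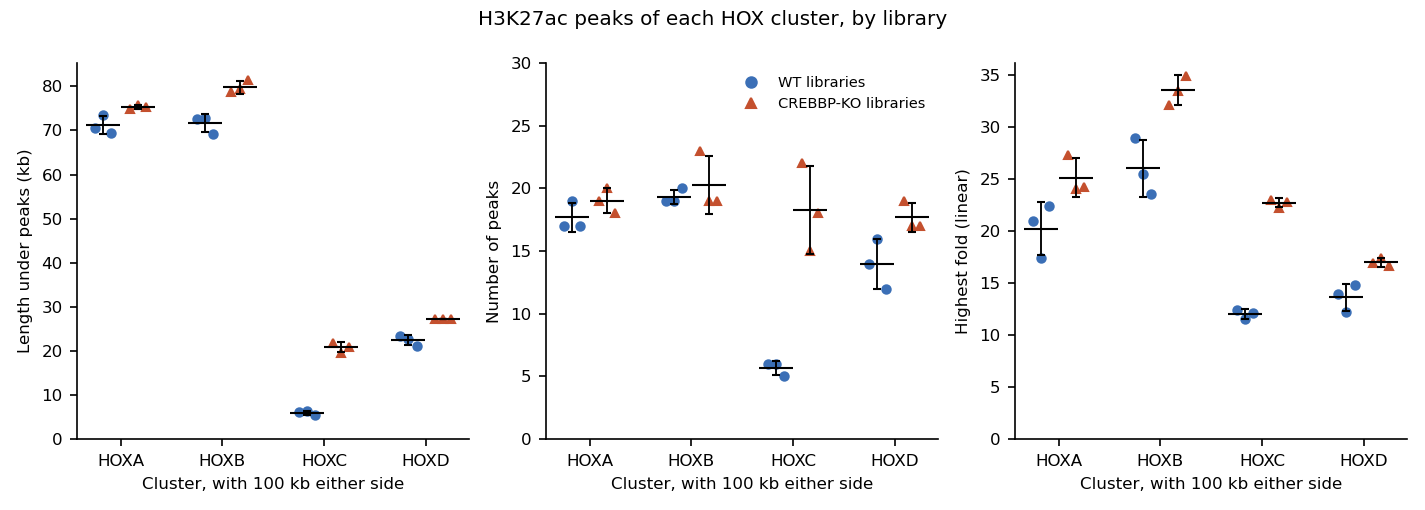
Length under H3K27ac peaks in kb (left), number of peaks (middle) and highest fold on a linear scale (right) for each HOX cluster with 100 kb either side. Points are single libraries (WT blue circles, CREBBP-KO red triangles), horizontal bars are means and error bars SD (n = 3). HOXC has 5.39 to 6.33 kb under peaks in WT and 19.6 to 21.9 kb in CREBBP-KO.

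The genome was cut into bins of 300 kb, close to the length of a cluster region, to set these differences beside the rest of it. A larger covered length in all 3 CREBBP-KO libraries than in all 3 WT libraries was found in 29.5% of the 7072 bins with a peak in every library, and more peaks in 25.1%, so that the separation seen for HOXA, HOXB and HOXD is common. The median ratio over bins was 1.04 for covered length and 1.15 for the number of peaks. A ratio of covered length of at least 3 without overlap, a threshold chosen after the HOXC value was seen, was met by 44 bins, or 0.622%. When all lists were reduced to the length of the shortest list by fold, HOXC still gained 14.2 kb and 10.7 peaks, against 14.8 kb and 12.7 peaks with the whole lists.

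**Figure D2:**
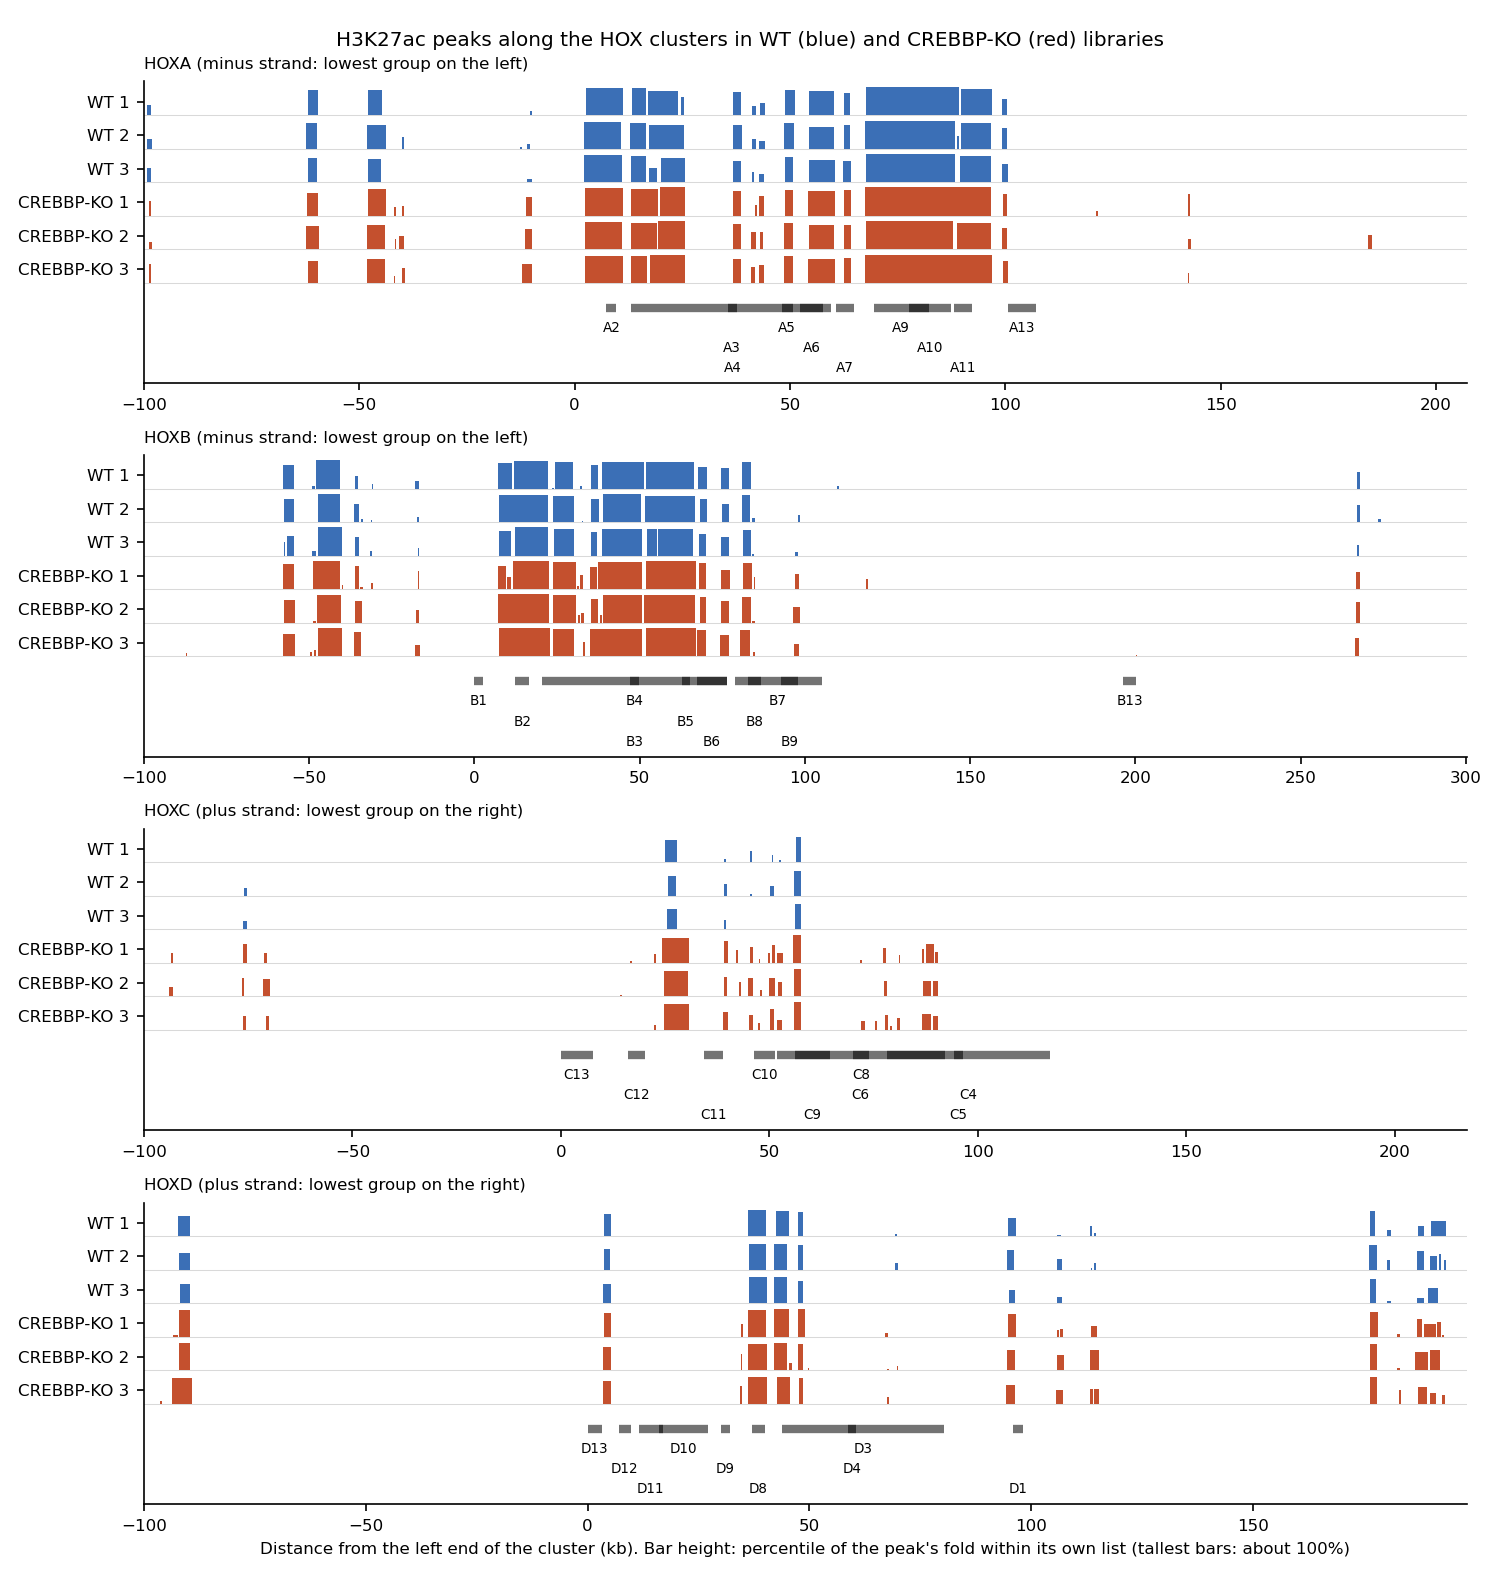
Peaks of the 6 libraries along the 4 clusters, plotted by distance in kb from the left end of the cluster. Bar height is the percentile of the peak's fold within its own list, grey bars below are the genes reported here. HOXA and HOXB show wide peaks over much the same stretches in all 6 libraries, although libraries differ in how these are split into peaks. HOXC shows at least 15 peaks in CREBBP-KO libraries and at most 6 in WT libraries.

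The next question was which genes had an acetylated promoter, that is, a peak overlapping 1 kb either side of the start of a protein-coding transcript. A peak was present in all 6 libraries for 22 of the 39 HOX genes, against 61.7% of 19689 protein-coding genes. These were 10 of the 11 HOXA genes, 6 of the 10 HOXB genes, 3 of the 9 HOXC genes and 3 of the 9 HOXD genes. Along the body axis, the mark was present at 9 of the 12 anterior genes (groups 1 to 4), 8 of the 11 central genes (groups 5 to 8) and 5 of the 16 posterior genes (groups 9 to 13). No gene of groups 12 and 13, which pattern the hindmost structures, had a peak in every library. The posterior genes with a peak in all libraries were HOXA9, HOXA10, HOXA11, HOXC9 and HOXC10.

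At the GENCODE starts, a promoter peak was absent from every library for 12 HOX genes, namely HOXA13, HOXB1, HOXC5, HOXC8, HOXC11, HOXC13, HOXD4, HOXD9, HOXD10, HOXD11, HOXD12 and HOXD13. In HOXD the boundary lay between HOXD8, which was acetylated, and HOXD9, and none of the 5 posterior HOXD genes had a promoter peak. Beyond this boundary an interval between HOXD13 and HOXD12, 1671 bp from the HOXD12 start and in no GENCODE gene (chr2:176096193-176098124), carried a peak in all 6 libraries, with percentiles of 77.0, 70.7 and 68.5 in WT and 81.5, 82.5 and 80.5 in CREBBP-KO. These groups did not overlap, with a rank shift of 0.39 (SE 0.23, adjusted p = 0.184, limma over intervals). HOXA13 was the HOXA gene without a peak at its start, although an interval 6515 bp from its start (chr7:27192220-27193576) overlapped the 3′ part of the gene and carried a peak in all 6 libraries. HOXB8 and HOXB9 had peaks in 2 WT and all 3 CREBBP-KO libraries, at percentiles of at most 55.8. HOXB13, the prostate and hindgut gene of this cluster, and HOXC12 had a peak in 1 CREBBP-KO library each, at percentiles of 3.88 and 6.66.

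By these starts, HOXC4 was the single HOX gene whose promoter had a peak in every CREBBP-KO library but none in WT, a pattern shared by 0.869% of protein-coding genes. It is the most anterior HOXC gene, and its peaks (within chr12:54016157-54017355) had folds of 4.15, 4.42 and 4.34 and percentiles of 52.5, 55.1 and 53.2. They overlap an exon of HOXC4 and also lie in HOXC6, whose long transcripts span the same region. No HOX gene had the opposite pattern.

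HOX genes lie close together, and a wide peak can serve several promoters. The 22 to 26 genes with a promoter peak in a library rested on 19 to 22 distinct peaks. HOXA9 and HOXA10 shared a single peak of 20.4 to 29.5 kb in every library, among the widest peaks of each list (width percentiles of 99.9 to 100.0), and in CREBBP-KO libraries 1 and 3 it extended over HOXA11 as well. The peak at HOXA2 was 8.56 to 8.87 kb wide. HOXC6 and HOXC9 shared a peak of 1.17 to 1.84 kb. Genes that share a peak have the same values and are not independent. Where the summit of the peak was also required to lie within 1 kb of the start, a rule added after the data were seen, 13 genes instead of 22 had a peak in all 6 libraries. Over all protein-coding genes the number was 11219 instead of 12147, so the HOX count depended more on this rule.

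Within HOXA the highest peak over a promoter was that of HOXA9 and HOXA10, posterior genes that are also expressed in blood progenitors. By the mean over the 6 libraries that of HOXA2 came next, although HOXA3 was above HOXA2 in all 3 CREBBP-KO libraries. The peak summit lay within the HOXA9 promoter window in 1 WT library and no CREBBP-KO library. For HOXA10 and HOXA2 it lay outside the window in all 6 libraries, so these heights were reached elsewhere under the peaks. The HOXA9 and HOXA10 peak had folds of 20.9, 17.4 and 22.4 in WT and 27.3, 24.0 and 24.2 in CREBBP-KO, and percentiles of 98.1, 96.8 and 98.8 against 99.4, 98.4 and 98.3. The percentiles overlapped, with a rank shift of 0.05 (SE 0.20, adjusted p = 0.879, limma). The shift is the CREBBP-KO minus WT difference of normal scores of the rank among promoters, with Benjamini-Hochberg adjustment over 12147 genes. HOXA2, which patterns the hindbrain, had percentiles of 93.1, 94.2 and 94.4 in WT and 95.4, 94.7 and 93.8 in CREBBP-KO, and these groups overlapped too.

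The 250 bases before the RefSeq start of HOXA9 and of HOXA2 (GRCh38.p14, chr7:27165538-27165787 and chr7:27102684-27102933, both minus strand) are shown because they lie under these peaks in all 6 libraries. The capitals in the HOXA2 sequence mark the reverse complement of TGATNNAT, the letters read by PBX and HOX proteins when they bind side by side.
HOXA9: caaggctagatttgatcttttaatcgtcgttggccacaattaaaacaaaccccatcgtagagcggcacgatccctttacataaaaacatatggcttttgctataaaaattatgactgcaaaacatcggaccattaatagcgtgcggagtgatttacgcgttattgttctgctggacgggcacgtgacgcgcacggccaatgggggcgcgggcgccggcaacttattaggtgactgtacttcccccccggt
HOXA2: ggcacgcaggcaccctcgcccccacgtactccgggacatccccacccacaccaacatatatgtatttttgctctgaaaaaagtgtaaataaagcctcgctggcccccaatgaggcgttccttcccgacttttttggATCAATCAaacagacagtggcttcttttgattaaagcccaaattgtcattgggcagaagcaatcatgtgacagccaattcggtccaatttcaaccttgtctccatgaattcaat
The HOXA9 stretch contained 20 CpG dinucleotides and the HOXA2 stretch 8, against a median of 11 over the 35116 promoter entries of the table. Promoter entries were found for 20 of the 39 HOX genes (27 entries).

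In HOXB, the promoters of HOXB2, HOXB3 and HOXB4 ranked highest by the mean over the 6 libraries, although HOXB5 was above HOXB4 in all 3 CREBBP-KO libraries. HOXB2, which acts in the hindbrain downstream of group 1 genes, had the tallest promoter peak of the 39 genes in each CREBBP-KO library but not in WT replicates 1 and 2, with folds of 17.3, 17.2 and 23.5 in WT and 32.1, 33.4 and 34.9 in CREBBP-KO. Its percentiles were 96.0, 96.6 and 99.0 in WT and 99.8 in every CREBBP-KO library. HOXB3 had percentiles of 94.8, 97.2 and 94.4 in WT and 98.3, 98.2 and 98.8 in CREBBP-KO. Its highest promoter peak was not the same peak in every library. It started at chr17:48552819, 48567300 and 48580648 in WT and at 48580308, 48552445 and 48580304 in CREBBP-KO. HOXB4, a gene that expands blood stem cells when it is overexpressed, had 94.0, 97.2 and 94.3 in WT and 96.7, 97.3 and 96.3 in CREBBP-KO. The summit of its peak lay outside the HOXB4 promoter window in all 6 libraries. The groups did not overlap for HOXB2 and HOXB3 and overlapped for HOXB4, but the HOXB3 values compare different peaks. The mark fell off towards the posterior end of the cluster, from HOXB7 (mean percentile 92.0 over the 6 libraries) to HOXB8 and HOXB9.

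In HOXC, the shared peak at HOXC6 and HOXC9 led in every library, and HOXC10 had percentiles of 41.1, 5.67 and 2.95 in WT and 57.2, 64.2 and 51.5 in CREBBP-KO. The HOXC10 groups did not overlap, and its rank shift was 0.71 (SE 0.30, adjusted p = 0.0899, limma). In HOXD, HOXD8 ranked highest in the WT libraries and HOXD3 in the CREBBP-KO libraries. HOXD8 had percentiles of 92.2, 89.9 and 93.1 in WT and 92.1, 91.7 and 92.3 in CREBBP-KO. HOXD3, an anterior gene, had 86.7, 89.1 and 91.3 in WT and 95.2, 94.7 and 93.5 in CREBBP-KO. HOXD1 had 64.2, 67.3 and 46.7 in WT and 79.3, 68.9 and 66.7 in CREBBP-KO. Of these 3 the groups were apart for HOXD3 alone, whose rank shift was 0.27 (SE 0.18, adjusted p = 0.280, limma).

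The 250 bases before the start of HOXD8 (chr2:176129455-176129704, plus strand), under a peak in all 6 libraries, and those before HOXA13 (chr7:27200092-27200341, minus strand), under a peak in none, are shown side by side. Capitals mark GC boxes (GGGCGG or its reverse complement), the letters read by SP1 and related factors.
HOXD8: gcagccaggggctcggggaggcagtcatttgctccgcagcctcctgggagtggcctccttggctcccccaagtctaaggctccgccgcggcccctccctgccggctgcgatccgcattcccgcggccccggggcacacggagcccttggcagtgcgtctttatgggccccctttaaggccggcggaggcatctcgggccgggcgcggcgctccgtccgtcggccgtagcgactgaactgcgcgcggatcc
HOXA13: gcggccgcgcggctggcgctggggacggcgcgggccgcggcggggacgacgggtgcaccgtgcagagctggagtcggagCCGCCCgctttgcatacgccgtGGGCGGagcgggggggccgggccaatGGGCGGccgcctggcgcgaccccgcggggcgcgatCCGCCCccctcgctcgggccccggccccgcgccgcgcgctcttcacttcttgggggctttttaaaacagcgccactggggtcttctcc
HOXD8 had 28 CpG and no GC box in this stretch, and HOXA13 had 40 CpG, the most of the HOX entries without a peak, and 4 GC boxes. The 13 HOX entries under a peak in all 6 libraries had a median of 24 CpG (8 to 31), and the 11 entries under no peak had a median of 16 (0 to 40), so the ranges overlap. A GC box was present in 13 of the 27 HOX entries and in 42.6% of all entries. TGATNNAT was present in 3 HOX entries and in 6.47% of all entries, and TGACGTCA, the cyclic AMP response element, in no HOX entry and in 1.65% of all entries. TGANTCA, the AP-1 site, was in no HOX entry and in 6.57% of all entries. Both strands were searched, and a match or its absence describes only the letters of these windows.

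The comparison of the genotypes asked which HOX promoters changed rank when CREBBP was lost. Of the 22 HOX genes with a peak in all 6 libraries, 5 rose and 1 fell at adjusted p under 0.05 (limma). Over all 12147 genes tested, 14.5% rose and 14.1% fell, so 5 of 22 is read as no result about the HOX genes as a group. The percentile was higher in CREBBP-KO without overlap for 13 of the 22 genes, against 45% of all genes, and lower without overlap for none, against 7.71%. The median shift was 0.07 over the HOX genes and 0.01 over all genes. On the raw log2 fold scale, on which the median of all genes moved by 0.29 and 5177 of the 5603 calls were upward, 12 HOX genes rose and none fell, where ranks gave 5 and 1.

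HOXA3, an anterior gene needed for the thymus and parathyroid, had the largest shift. Its promoter peak had folds of 10.1, 9.40 and 10.1 in WT and 23.2, 22.7 and 22.5 in CREBBP-KO, and percentiles of 84.3, 82.4 and 83.5 against 98.6, 98.0 and 97.7. The CREBBP-KO values were all higher, with a shift of 1.46 (SE 0.18, adjusted p = 8.67e-05, limma). The peak stood at the downstream starts of the gene (within chr7:27105900-27118681). A peak summit lay within a HOXA3 promoter window in 0 WT and 2 CREBBP-KO libraries. At the start of the canonical transcript alone, which lies under the HOXA6 peak, the shift was 0.00 (adjusted p = 0.993, limma).

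The 250 bases before the RefSeq start of HOXA3 that lies under this peak (chr7:27113843-27114092, minus strand) are printed with GC boxes in capitals, of which it holds 4, overlapping ones counted separately.
HOXA3: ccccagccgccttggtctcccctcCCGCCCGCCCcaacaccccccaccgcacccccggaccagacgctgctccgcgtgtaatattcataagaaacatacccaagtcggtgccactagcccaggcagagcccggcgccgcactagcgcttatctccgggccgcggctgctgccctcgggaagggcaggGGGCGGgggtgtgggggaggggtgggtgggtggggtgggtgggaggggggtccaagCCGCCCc

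HOXC6 and HOXC9, which share the peak at chr12:53994517-53996512, had folds of 12.4, 11.5 and 12.1 in WT and 23, 22.2 and 22.8 in CREBBP-KO, and percentiles of 89.7, 88.2 and 88.5 against 98.5, 97.8 and 97.8. The groups did not overlap, and the shift was 1.03 (SE 0.18, adjusted p = 8.64e-04, limma) for the pair. HOXC6 is a central gene with several promoters along the cluster, and HOXC9 is a posterior gene of the trunk. HOXB2 shifted by 0.96 (SE 0.20, adjusted p = 0.00268, limma), with no peak summit in its promoter window in any CREBBP-KO library.

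HOXB5, a gene that takes part in the migration of enteric neural crest cells, had percentiles of 94.1, 93.2 and 92.5 in WT and 98.3, 97.7 and 98.8 in CREBBP-KO, with a shift of 0.66 (SE 0.19, adjusted p = 0.0157, limma). Its value belongs to the wide peak over HOXB3 to HOXB5, whose summit lay outside the HOXB5 promoter window in all 6 libraries. The call was lost without WT replicate 3 (adjusted p = 0.0514, limma) and without CREBBP-KO replicate 3 (adjusted p = 0.0720). HOXB7 was the gene that fell, with percentiles of 92.3, 96.2 and 90.4 in WT and 90.4, 91.8 and 90.7 in CREBBP-KO and a shift of -0.59 (SE 0.21, adjusted p = 0.0444, limma). These groups overlapped, and the call was lost when WT replicate 1, WT replicate 2 or any CREBBP-KO replicate was left out (adjusted p from 0.0718 to 0.210).

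Acetylation away from promoters was compared by merging overlapping or touching peaks across the 6 lists. Of the 83 intervals of the 4 clusters, 31 were kept by the filter of the study's methods, read as a fold of 5 or more in every replicate of WT, of CREBBP-KO or of both. Of these, 25 passed in both genotypes, 6 in CREBBP-KO alone and none in WT alone. Over the genome, 14.8% of the 35542 kept intervals passed in CREBBP-KO alone and 4013 of them in WT alone. None of the 31 was restricted to a genotype, that is, each had a peak of some height in the other genotype. Of the 35542 kept intervals of the genome, 162 were restricted in this way. Among all 83 intervals, 9 carried peaks in each of the 3 CREBBP-KO libraries but none in WT, against 2.66% of all intervals. The reverse held for 1 of them, against 1548 of all 143733 intervals.

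Of the 30 kept intervals with a peak in all 6 libraries, 12 rose in rank and 1 fell (limma, adjusted over 34864 intervals). Over the genome, 18.6% rose and 18.7% fell. By cluster, 2 of 11 rose in HOXA, 5 of 9 in HOXB, 3 of 3 in HOXC and 2 of 7 in HOXD, as the plot of interval shifts shows. An interval that passed the filter in CREBBP-KO alone entered this test through its CREBBP-KO values, so its rise is not independent of the filter. This holds for the rising intervals at chr7:27080870-27083188, chr12:53977768-53978962 and chr17:48492104-48494696. The same filter was used over the genome. The median shift was 0.39 over the 30 intervals, against 0.02 over all intervals. It was 0.45 in HOXB, where the rest of chromosome 17 had a median of 0.16 (372 intervals up and 186 down of 1537), and 1.01 in HOXC, where the rest of chromosome 12 had -0.00. On the raw log2 fold scale, 9754 of all 14325 calls were upward, where ranks gave 6472 of 13005. Intervals of a cluster are neighbours and are not independent of each other. The summed promoter folds of the mesenchymal markers given above also rose without overlap, on the raw scale on which most calls were upward. By rank, 2 of these 5 markers rose and 0 fell (limma, adjusted p under 0.05), where 14.5% of all genes tested rose and 14.1% fell. The part of these markers in the interval shifts was not tested.

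**Figure D3:**
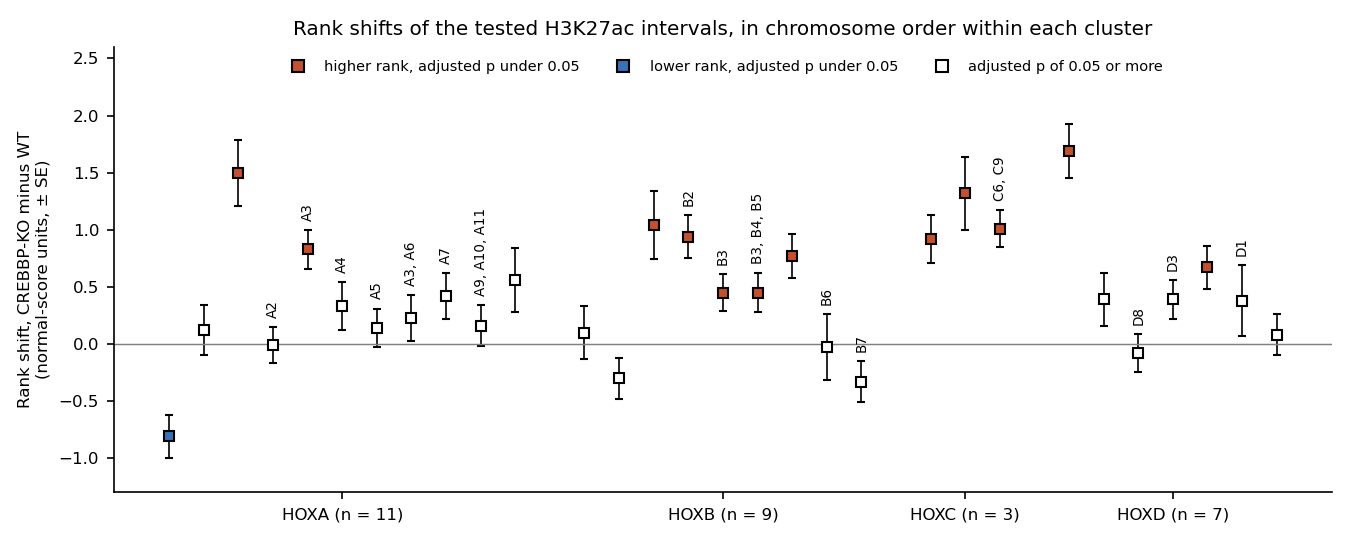
Rank shift of each of the 30 tested intervals in normal-score units, CREBBP-KO minus WT, with SE as error bars. Intervals are in chromosome order within each cluster, numbers name the HOX promoters they overlap, and filled squares had an adjusted p under 0.05. The 3 HOXC intervals lie between 0.92 and 1.32, and 6 intervals of the other clusters are below 0, of which 1, in HOXA at -0.81, had an adjusted p under 0.05.

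The interval with the largest shift lay in the HOXD flank, at the promoter of LNPK (chr2:175999117-176003659), a neighbour gene whose product shapes the endoplasmic reticulum. Its folds were 6.46, 5.01 and 6.26 in WT and 14.4, 17.4 and 12.8 in CREBBP-KO, and its percentiles 69.5, 58.1 and 67.1 against 93.0, 94.9 and 88.6. The groups did not overlap, with a shift of 1.69 (SE 0.24, adjusted p = 2.59e-05, limma).

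The second largest shift was 1.5 (SE 0.29, adjusted p = 4.91e-04, limma) at chr7:27080870-27083188, in the flank of HOXA, where no GENCODE gene is annotated. Its percentiles were 14.5, 16.2 and 12.2 in WT and 64.8, 69.9 and 63.8 in CREBBP-KO. It passed the fold filter in CREBBP-KO alone, with folds of 2.88, 2.92 and 2.85 in WT and 5.15, 6.11 and 5.38 in CREBBP-KO. The sequence around its summit is repetitive: all 6 stretches of 32 bases cut from the 201 bases around the summit occurred more than once in the reference, the most frequent 11988 times. How reads with several possible positions were treated is not given in the sources used here.

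The interval that fell, at chr7:27030608-27033581 in the flank of HOXA, is in no GENCODE gene and had percentiles of 88.1, 90.4 and 85.8 in WT and 79.4, 79.9 and 76.9 in CREBBP-KO. All WT values were higher, with a shift of -0.81 (SE 0.19, adjusted p = 0.00287, limma). Within HOXC, the largest shift was 1.32 (SE 0.32, adjusted p = 0.00302, limma), at chr12:53977768-53978962 between HOXC11 and HOXC10, outside any GENCODE gene. Its percentiles were 11.4, 41.2 and 32.3 in WT and 76.4, 67.3 and 63.5 in CREBBP-KO, and it passed the fold filter in CREBBP-KO alone. The 201 bases around the summits of both intervals (plus strand, hg38, chr12:53978136-53978336 and chr7:27031677-27031877) are shown, as they are the HOXC interval that rose most and the interval that fell. All 6 stretches of 32 bases cut from each occurred once in the reference.
HOXC interval that rose: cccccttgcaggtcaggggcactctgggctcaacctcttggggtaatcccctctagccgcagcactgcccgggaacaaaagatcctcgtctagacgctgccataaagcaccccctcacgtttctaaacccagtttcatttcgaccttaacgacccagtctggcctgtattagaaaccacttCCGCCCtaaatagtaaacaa
HOXA interval that fell: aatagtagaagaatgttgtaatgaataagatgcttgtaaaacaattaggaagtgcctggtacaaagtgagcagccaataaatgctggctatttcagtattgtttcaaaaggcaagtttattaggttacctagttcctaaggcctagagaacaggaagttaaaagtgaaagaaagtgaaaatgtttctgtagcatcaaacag
The HOXC stretch had 8 CpG and, in capitals, 1 GC box in reverse complement, and the HOXA stretch had no CpG and none of the motifs. Of the summit windows of all 34847 tested intervals on the main chromosomes, 17.4% held a GC box.

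The third HOXC interval (chr12:53963079-53969521) covered the promoter of HOTAIR, a long non-coding RNA of the HOXC cluster studied for its role in silencing. Its folds were 8.15, 6.41 and 6.93 in WT and 10.9, 13.1 and 13.5 in CREBBP-KO, and its percentiles were 77.6, 69.2 and 71.0 against 87.6, 89.9 and 89.6. All CREBBP-KO values were higher, and the shift was 0.92 (SE 0.21, adjusted p = 0.00205, limma). By the mean over the 6 libraries, the highest interval of the HOXB region lay between SKAP1 and HOXB1, in no GENCODE gene (chr17:48479453-48488470), with percentiles of 99.7, 99.5 and 99.0 in WT and 99.5, 98.5 and 98.9 in CREBBP-KO. These groups overlapped, with a shift of -0.30 (SE 0.18, adjusted p = 0.205, limma). In the CREBBP-KO libraries the HOXB2 interval was above it. In HOXA and HOXC the intervals at HOXA9 to HOXA11 and at HOXC6 with HOXC9 were the highest in every library. In HOXD the HOXD8 interval was highest by the mean over the 6 libraries (91.9, against 91.7 for that at HOXD3) and in WT, and lay below the HOXD3 interval in all 3 CREBBP-KO libraries.

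The clusters also encode microRNAs that target HOX transcripts, and 6 of them were followed by their hairpins. Peaks overlapped the MIR196B hairpin, between the main starts of HOXA9 and HOXA10, in all 6 libraries, at percentiles of 98.1, 96.8 and 98.8 in WT and 99.4, 98.4 and 98.3 in CREBBP-KO. The MIR196A2 hairpin, in HOXC, lay under a peak in the 3 CREBBP-KO libraries (percentiles of 36.2, 50.2 and 35.6) and in no WT library. A peak within 1 kb was also present in WT replicate 1, at a percentile of 8.01. The MIR10A hairpin, near HOXB4, lay under a peak in WT replicate 1 and CREBBP-KO replicate 2 alone, although a peak within 1 kb was present in all 6 libraries. The hairpins of MIR10B, MIR196A1 and MIR615 were under no peak. The mature 5′ arms of the first 3 are shown in full, from RefSeq, with the seed (bases 2 to 8) in capitals.
miR-196b-5p: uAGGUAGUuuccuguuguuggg
miR-196a-5p: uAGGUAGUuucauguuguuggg
miR-10a-5p: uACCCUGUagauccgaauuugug
The miR-196 pair has the same seed, with miR-196b encoded in HOXA and miR-196a by MIR196A1 in HOXB and MIR196A2 in HOXC, while the miR-10a seed differs.

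Of 23 neighbours and embedded genes, 12 had a promoter peak in all 6 libraries and 9 in none. Of the 8 protein-coding neighbours tested, 2 rose and none fell, where 14.5% of all genes tested rose and 14.1% fell. Those that rose were LNPK (promoter shift 1.39, SE 0.21, adjusted p = 3.14e-04, limma) and CBX1, a heterochromatin protein gene beyond the HOXB region (0.83, SE 0.22, adjusted p = 0.00975). EVX1 and EVX2, the homeobox genes at the posterior ends of HOXA and HOXD, had no promoter peak in any library, as was the case for HOTTIP, PRAC1, PRAC2 and SKAP1. HOTAIRM1, a long non-coding RNA of the HOXA cluster, shared the peak at HOXA2. TTLL6 had a peak in 1 CREBBP-KO library.

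HOX proteins bind DNA with cofactors of the TALE class. PBX2, PBX3, MEIS1, MEIS2, MEIS3, PKNOX1 and PKNOX2 had a promoter peak in all 6 libraries, and PBX4 had none. PBX2 fell from percentiles of 98.8, 96.6 and 97.0 in WT to 90.7, 93.5 and 93.6 in CREBBP-KO, with a shift of -1.10 (SE 0.21, adjusted p = 0.00156, limma). It was higher in every WT library than in any CREBBP-KO library, and PBX3, MEIS1, MEIS2, MEIS3, PKNOX1 and PKNOX2 did not pass the test (shifts from -0.47 to 0.42). Of the 6 ParaHox genes, the relatives of HOX genes that pattern the gut, CDX1, CDX2, CDX4, PDX1 and GSX1 had no promoter peak in any library, and GSX2 had a peak in 2 WT and 3 CREBBP-KO libraries.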

How the data were processed

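The authors aligned reads to hg38 (nf-core ChIP-seq pipeline, with BWA named in the submitters' processing notes) and deposited a MACS2 narrow peak list for each of 3 WT and 3 CREBBP-KO libraries, made from separate populations. The deposited fold is a linear ratio over local background, significance was deposited as -log10 p and -log10 q (at least 1.3), and the deposited score was not used. The authors downsampled reads, and whether these lists precede that step is not stated. Inputs were not analysed here. Rank shifts were fitted with limma 3.58.1 (R 4.3.3, trend, Benjamini-Hochberg), which was tested on simulated data. Single values were compared by exact permutation (numpy 2.4.6), and ranks and normal scores were taken with scipy 1.17.1. Merging was checked against bedtools 2.31.1. Annotation was GENCODE 44. Members, lists and tests were chosen with earlier results of these data known. Named were the top 3 promoters per cluster, called promoters, genes with peaks in a single genotype, each cluster's highest interval and the 2 largest interval shifts each way. The HOTAIR and largest HOXC intervals, the HOXA2 and HOXA13 sequences, summit windows, microRNAs and members of the other lists were chosen after their values were seen. Alternatives were other windows, thresholds, heights, models and left-out libraries. Some genes are not reported here.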

Additional observations from a re-analysis of the deposited data

How the results depend on the processing

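The gain of the 4 clusters in number of peaks and in covered length, and that of HOXC, kept its direction under every flank, peak threshold and list length tried and without any library; the gain over the 4 clusters ranged from 14.8 to 20.8 peaks and from 29.1 to 34.2 kb when a library was left out. The small differences in the number of peaks did not: HOXA had 1.67 fewer peaks in CREBBP-KO without flanks (-1.67), where wide peaks had merged, and HOXB changed sign with a fold of at least 5 (-0.667), lists of the same length (-1) and without CREBBP-KO replicate 1 (-0.333). Requiring the summit in the promoter window (added after seeing the data) left 13 HOX genes with a peak in all 6 libraries (11219 of 12147 over all genes) and 3 rising. Canonical starts gave 3 rising genes and raw log2 folds 12. The number falling was 2 with windows of 2.5 kb, 0 by -log10 p, 0 on raw log2 folds, and 0 to 1 without a library. A fold filter of 3 kept 51 intervals, of which 6 were restricted to a genotype, and a filter of 10 left 0 restricted. The restricted share of all intervals at a filter of 3 was not taken, so the 6 are read as no result about the clusters. The HOXD8 percentile difference, 0.304, turned to -0.616 without WT replicate 2. Same-numbered libraries did not deviate together (correlations of 0.01 to 0.03, against -0.03 to 0.01 for other pairs), so the numbers do not pair them. With a replicate block, 6 HOX genes rose (5 without it) and 1 fell, and 12 intervals rose and 1 fell, the same counts as without it. Beyond these, the cause of a change was not tested. Peak lists hold no reads, so peaks below the threshold of a list cannot be told from absent acetylation.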

Other observations

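Of 6 genes whose products regulate HOX clusters (KMT2A and MEN1 of an activating methyltransferase complex, EZH2, SUZ12 and EED of Polycomb repressive complex 2, and CTCF, which separates domains), each had a promoter peak in all 6 libraries. EED rose from percentiles of 94.9, 95.1 and 94.2 in WT to 99.0, 98.6 and 97.8 in CREBBP-KO, without overlap, with a shift of 0.55 (SE 0.19, adjusted p = 0.0359, limma). The other 5 did not pass the test, which 14.5% of all genes tested passed upward and 14.1% downward. SUZ12 had percentiles of 84.3, 88.7 and 83.9 in WT and 94.0, 95.8 and 90.8 in CREBBP-KO (shift 0.45, SE 0.21, adjusted p = 0.115), and CTCF had 99.1, 99.4 and 99.2 against 98.8, 98.6 and 98.8 (shift -0.46, SE 0.17, adjusted p = 0.0553). EP300, the paralogue of CREBBP, had percentiles of 99.1, 99.5 and 99.3 in WT and 99.6, 99.4 and 99.4 in CREBBP-KO.

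Several weak HOXC peaks were seen in CREBBP-KO libraries alone. An interval within HOXC4 and HOXC6 (chr12:54025420-54029325) held 3, 2 and 2 peaks in the CREBBP-KO libraries, with highest percentiles of 64.8, 53.5 and 56.5, and none in WT. An interval upstream of the cluster (chr12:53867363-53868991), in a long non-coding RNA gene, had percentiles of 33.8, 59.4 and 47.4 in CREBBP-KO and no peak in WT. Of the 22 HOXC intervals, 15 had a peak in at least 1 CREBBP-KO library and in no WT library, against 28.3% of all 143733 intervals, and none had the reverse, against 15.4%.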
